A study of Mus musculus with 6 samples.

Results

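The genes described here belong to the cyclin-dependent kinase (CDK) machinery that drives the cell cycle into S phase and mitosis: the cyclins Ccnb1, Ccna2 and Ccne2, the kinase Cdk1 (listed under its older name Cdc2a), its binding partners Cks1b and Cks2, and the phosphatases Cdc25b and Cdc25c. Their RNA was compared between melan-a cells, a partially immortalized, non-tumorigenic mouse melanocyte line, and B16 mouse melanoma cells, both derived from C57BL/6 mice and both untreated. Each of 6 Agilent whole mouse genome arrays carried melan-a and B16 RNA of a separate biological replicate, labelled with different dyes. On replicates 1, 3 and 5 the Cy5 label was on the melan-a RNA and Cy3 on that of B16, and replicates 2, 4 and 6 had the reverse. B16 cells were grown in DMEM with bovine calf serum, and melan-a cells in RPMI 1640 with fetal bovine serum and a phorbol ester, so cell line and medium cannot be told apart; both were harvested at a similar confluence. In these bulk RNA samples a smaller share of cycling cells and less RNA per cycling cell cannot be told apart.

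The array files give probes without gene names. The 8 genes were found by name in the study's list of genes differing between the lines, where they have 9 of 3549 entries, since Ccne2 is listed both as its reference transcript and as a cDNA clone described as cyclin E2. For each entry, every probe whose own mean ratio over the 6 arrays came within 0.00051 of the listed fold was kept as a candidate, which gave 33 candidate probes of 41174 probes on the array. The members were thus chosen by their measured melan-a over B16 ratio, so that ratio is given below as a description, with no p-value for any member, and counts of members called in the fit of all probes only describe the choice. The largest deviation among the candidates kept was 0.000469 and the smallest among the probes left out was 0.000512. Ccnb1 and Cks2 had 1 candidate each, Ccna2 had 2, Cdk1 and Cdc25c had 3, Cks1b had 4 and Cdc25b had 5. The Ccne2 reference entry had 12 candidates and the Ccne2 clone had 2. Where an entry has several candidates, which of them measures the gene is not known, and candidates become more numerous nearer to a fold of 1: 236 probes lay within 0.01 of the fold of the Ccne2 reference entry, against 4 for Ccnb1 and 8 for Cks2. Of the 9 entries, 7 had as many candidates as there were listed entries with the same fold. Where there are several, the others may therefore measure other listed entries. All 33 candidates passed the filter on low signal on all 6 arrays.

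Cdk1 is the kinase that starts mitosis once it is bound to a cyclin. Cyclin A2 acts in S phase and early mitosis and cyclin B1 in mitosis itself, whereas cyclin E2 works with Cdk2 at the entry into S phase. The Cks proteins are small subunits that help the kinase find its phosphorylated targets, and the Cdc25 phosphatases remove the inhibitory phosphates that Wee1 and Pkmyt1 place on Cdk1. RNA of most of these genes is high in cycling cells and low in resting cells, under control of promoters that often carry CCAAT boxes (bound by NF-Y), a cell cycle genes homology region called CHR (bound by the DREAM and MuvB complexes) and E2F sites.

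The 250 bases before the transcription start of the 3 members with the largest listed difference are shown, because these control regions are what the mitotic genes are known to share. They are RefSeq promoters on build GRCm38.p6, written 5′ to 3′ along the gene, with each match in capitals to CCAAT, to TTTGAA (the CHR core) or to TTTNNCGC (an E2F core) on either strand. The Ccnb1 window is chr13:100786487-100786736 on the minus strand, the Cks2 window chr13:51644982-51645231 on the plus strand and the Cdk1 window chr10:69352913-69353162 on the minus strand.
Ccnb1: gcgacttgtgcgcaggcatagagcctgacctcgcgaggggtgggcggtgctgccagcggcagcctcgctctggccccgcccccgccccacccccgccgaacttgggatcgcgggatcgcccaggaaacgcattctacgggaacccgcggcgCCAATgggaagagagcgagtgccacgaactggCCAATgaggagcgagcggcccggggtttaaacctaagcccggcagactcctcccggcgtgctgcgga
Cks2: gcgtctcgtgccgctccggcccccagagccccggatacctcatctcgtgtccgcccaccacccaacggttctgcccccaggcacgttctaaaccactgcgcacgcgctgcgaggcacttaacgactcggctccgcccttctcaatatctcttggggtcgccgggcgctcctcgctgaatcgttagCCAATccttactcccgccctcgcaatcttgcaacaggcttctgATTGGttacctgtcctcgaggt
Cdk1: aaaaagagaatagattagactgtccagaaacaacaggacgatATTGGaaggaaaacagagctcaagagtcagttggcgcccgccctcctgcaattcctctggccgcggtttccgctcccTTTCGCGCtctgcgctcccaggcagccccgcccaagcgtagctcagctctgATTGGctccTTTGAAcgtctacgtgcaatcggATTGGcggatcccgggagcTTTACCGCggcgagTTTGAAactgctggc
Ccnb1 and Cks2 held 2 CCAAT matches each and no match to the other motifs in this window. Cdk1 held 3 CCAAT, 2 CHR and 2 E2F matches, and its most downstream CHR match began 15 bases before the start. Of the other members in the promoter table, Cks1b held 4 CCAAT and 2 CHR matches and Cdc25b held 1 CCAAT match. Among 32851 RefSeq promoter windows of this length, 33.8% held a CCAAT match and 4.28% an E2F match, and a CHR match was found in 5252. A match is a description of the letters, not a binding site. The table matched 5 of the 8 members; Ccna2, Ccne2 and Cdc25c are named only.

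Over all arrays the median summed signal of probe spots ranged from 779.87 on replicate 2 to 4307.5 on replicate 5. The image of replicate 1 was read on a separate day. Of 12 melanocyte marker genes, 3 were found in the list used for naming: Kit and Oca2 were higher in melan-a and Gpnmb was lower, and the defining pigment genes Tyr, Dct and Pmel were not among the named entries. The log2 ratio of Oca2 varied widely, from 4.94 on replicate 1 to -0.06 on replicate 4. The fibroblast collagen gene Col1a1 had the higher signal in melan-a on every array, with log2 ratios from 0.83 to 5.57. The other 4 fibroblast markers and all 4 keratinocyte markers were not found by symbol in the list of differing genes, so no probe was named for them. Of its 3549 entries 1139 stayed without a symbol, so a marker not found may still be listed. The part of other cell types in the results below was not tested.

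Cyclin B1, the mitotic partner of Cdk1, showed the largest difference of the 8 genes. The log2 ratio of melan-a over B16 of its candidate A_52_P558401 was -1.57, -2.40, -3.81, -4.36, -2.89 and -3.26 on replicates 1 to 6. All 6 values lay below 0, with replicate 1 nearest to it and replicate 4 farthest from it. The mean was -3.05 ± 0.999 (SD, n = 6), an 8.28-fold lower signal in melan-a. A related entry, described only as similar to cyclin B1 and not counted among the members, had 2 candidates with folds of 8.03 and 7.98 and the same order of extremes, replicate 4 lowest and replicate 1 highest.

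Cyclin A2, which binds Cdk2 in S phase and Cdk1 later, was 4.21-fold lower in melan-a. Candidate A_51_P358700 ran from -3.32 on replicate 4 to -0.97 on replicate 1, with a median of -2.12. Candidate A_51_P481920 ran from -3.44 to -0.91, with replicates 4 and 6 far below the other 4. Cyclin E2 gave unequal values: 3.17-fold lower at the clone entry and 1.58-fold lower at the reference entry. At the clone entry both candidates were below 0 on every array, from -3.18 to -1.04 for A_52_P517668 and from -2.13 to -0.53 for A_52_P58558. Of the 12 candidates of the reference entry, 10 were below 0 on all 6 arrays, and their SDs ranged from 0.204 to 0.733.

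**Figure D1:**
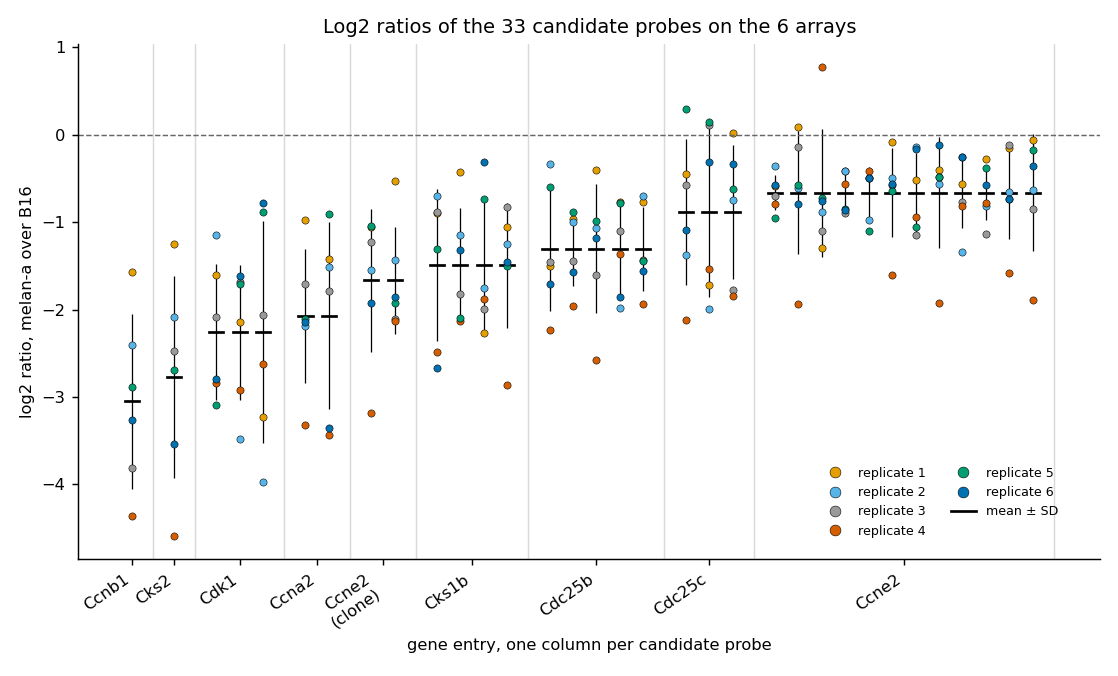
Log2 ratio of melan-a over B16 (vertical axis) of each candidate probe (columns, grouped by gene entry), with 1 point per array coloured by replicate and a bar for the mean ± SD (n = 6). All Ccnb1, Cks2 and Cdk1 points lie below 0, and replicate 4 (dark orange) is lowest for 19 of the 33 candidates.

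Cdk1, the kinase that these cyclins activate, was 4.79-fold lower in melan-a. Its candidates A_51_P450033, A_52_P163541 and A_52_P222230 have the same mean by the way they were found, and their spread differed: the SDs were 0.776, 0.774 and 1.27. The first ran from -3.09 on replicate 5 to -1.15 on replicate 2, the second from -3.48 on replicate 2 to -1.62 on replicate 6, and the third from -3.97 on replicate 2 to -0.78 on replicate 6. Replicate 2 was thus the array with the smallest difference for the first candidate and with the largest for the other two. All 18 values lay below 0.

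Both Cks subunits were lower in melan-a. Cks2 was 6.83-fold lower in melan-a, and its candidate A_52_P211063 gave log2 ratios of -1.25, -2.09, -2.47, -4.59, -2.69 and -3.54 on replicates 1 to 6. Replicate 1 was again nearest to 0 and replicate 4 farthest, and the mean was -2.77 ± 1.16 (SD, n = 6). Cks1b, which also helps the ubiquitin ligase subunit Skp2 recognise the inhibitor p27, was 2.81-fold lower. All 4 Cks1b candidates were below 0 on every array, with single arrays from -2.86 to -0.31.

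The Cdc25 phosphatases, which switch Cdk1 on, showed smaller differences. Cdc25b, which acts at the G2 to M transition, was 2.47-fold lower in melan-a, and its 5 candidates were below 0 on every array, with SDs from 0.425 to 0.735. Cdc25c, which amplifies the activation at mitotic entry, was 1.85-fold lower, but each of its 3 candidates had at least 1 array above 0. Candidate A_52_P25599 ran from -2.12 on replicate 4 to 0.30 on replicate 5, A_52_P401311 from -1.99 to 0.15 and A_52_P502771 from -1.84 to 0.02. The groups of arrays therefore straddled 0 for Cdc25c, unlike for Ccnb1, Cks2, Cdk1, Ccna2, Cks1b and Cdc25b.

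In the limma fit across 39687 probes, with calls made below an adjusted p of 0.10 and above 1.5-fold, 31 of the 33 candidates were called lower in melan-a, and 7 of the 8 genes had every candidate called. Over all probes 6.31% were called lower and 5.23% higher; since the members were chosen by this contrast, the counts describe them and support nothing. Cdc25c no longer had every candidate called without the filter on low signal, with centring, with a further loess, or without replicate 1, 2, 3, 4 or 6, and without replicate 2 only 24 of the 33 candidates were called. The 2 candidates not called, A_51_P365694 and A_51_P422996, both belong to the Ccne2 reference entry and each had 1 array above 0. One-class significance analysis of microarrays (SAM), the test the study used, called all 33 candidates lower, beside 6.52% of all probes. Of all 198 ratios of candidates and arrays, 6 were above 0.

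Ordered by the mean log2 ratio, the entries ran from Ccnb1 at -3.05 through Cks2 at -2.77, Cdk1 at -2.26, Ccna2 at -2.07, the Ccne2 clone at -1.67, Cks1b at -1.49, Cdc25b at -1.30 and Cdc25c at -0.88 to the Ccne2 reference entry at -0.66. The gaps between neighbours ranged from 0.18 to 0.51. Each gap was smaller than the SD over arrays of its neighbours, except that the gap of 0.22 between Cdc25c and the Ccne2 reference entry exceeded the smallest SD among the Ccne2 candidates (0.204). The gaps between neighbours were therefore mostly within the spread of single arrays. Differences between neighbours on the same array were not tested, so this does not decide their order.

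The deposited signals hold no background, so each level was set beside the 500 empty spots of the same dye and array. The median log2 signal of empty spots lay between 7.02 and 7.84 and their 95th percentile between 7.32 and 8.17. In B16 all 198 signals of candidates were above the 95th percentile, and in melan-a 196 were. The exceptions were 1 array of Cks1b candidate A_51_P356931 and 1 array of Cdc25c candidate A_52_P502771.

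The melan-a signal of Ccnb1 came close to the empty spots. Its B16 log2 signal was 10.28, 10.92, 12.19, 12.38, 13.23 and 11.34 on replicates 1 to 6, and its melan-a signal was 8.71, 8.52, 8.38, 8.02, 10.34 and 8.08. The melan-a signal was highest on replicate 5, the brightest array, and on the other arrays it exceeded the median of the empty spots by 0.45 to 1.31. On replicate 4 the melan-a signal was above the 95th percentile of the empty spots (7.93) but below their 99th (8.23). Cks2 stood higher: its melan-a log2 signal ran from 8.28 to 10.42 and its B16 signal from 10.54 to 13.58, without overlap. For Cdk1 the melan-a signals of all 3 candidates were at least 9.40 and thus clear of the empty spots.

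**Figure D2:**
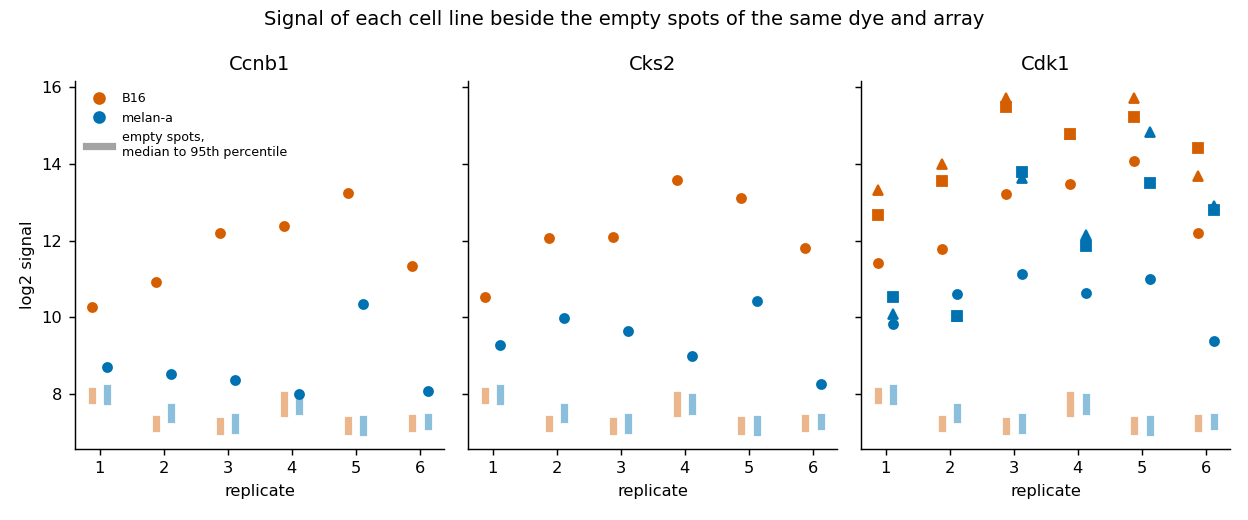
Log2 signal (vertical axis) of B16 (orange) and melan-a (blue) on each replicate (horizontal axis) for Ccnb1, Cks2 and the 3 candidates of Cdk1 (circle, square and triangle), with thick bars from the median to the 95th percentile of the empty spots of the same dye and array. The melan-a signal of Ccnb1 reached 8.02 on replicate 4, beside a 95th percentile of 7.93, whereas the Cdk1 signals stayed at or above 9.40.

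Subtracting the median of the empty spots increased the differences. Ccnb1 went from 8.28-fold to 15.2-fold lower and Cks2 from 6.83-fold to 9.06-fold. Cdk1 moved little, from 4.79-fold to between 5.09-fold and 5.37-fold. Subtraction left 28 of the 33 candidates with all 6 arrays, and the other 5 lost arrays whose subtracted sum was too low. Cks1b candidate A_51_P356931 kept 3 arrays, and on those it went from 4.04-fold as deposited to 8.23-fold, with the melan-a signal at the floor of 50 on 1 of them; its deposited fold over all 6 arrays was 2.81. The other 3 Cks1b candidates ended between 2.99-fold and 3.10-fold. On the arrays kept, 6 of the 33 candidates moved by more than 1.5 times: that of Ccnb1, 1 each of the Ccne2 clone, Cks1b and Cdc25c, and 2 of Cdc25b. The fold of a dim probe thus depended on the background. The direction stayed the same for every candidate, but this was nearly set in advance. Subtraction takes near-equal amounts from both dyes, which widens an existing difference and can hardly reverse it.

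**Figure D3:**
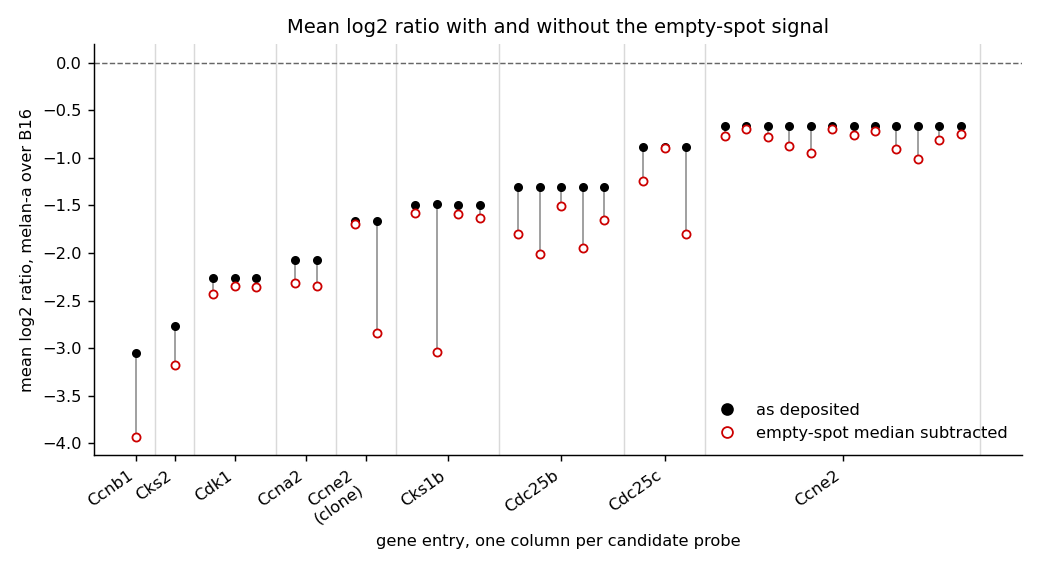
Mean log2 ratio of melan-a over B16 (vertical axis) of each candidate probe (columns) as deposited (black) and after subtraction of the median of the empty spots (red, open); black points average all 6 arrays, and for 5 candidates the red points average the 3 or 5 arrays kept. Ccnb1 moved from -3.05 to -3.93, and Cdk1 by at most 0.17.

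The labelling gives a comparison that the choice of members did not use, since 3 arrays carry each labelling. Of the 33 candidates, 27 (81.8%) had a less negative log2 ratio where melan-a carried Cy5, with a median difference of 0.42 and a range from -0.74 to 1.40. Of all probes called lower, 77.6% did, with a median difference of 0.37, so the share of the candidates lay near that background. None had a dye effect at an adjusted p under 0.10 in limma, beside 0.0403% of all 39659 probes tested, and 6 candidates had an unadjusted p under 0.05, which 13.2% of all probes had. The smallest p was that of Cdc25c candidate A_52_P25599, which averaged -0.24 with melan-a in Cy5 and -1.53 with melan-a in Cy3, a difference of 1.29 ± 0.411 (SE) with an adjusted p of 0.233 in limma. The mean of Ccnb1 was -2.76 with melan-a in Cy5 and -3.34 in Cy3 (limma, adjusted p = 0.717), and that of Cks2 was -2.14 and -3.41 (limma, adjusted p = 0.402). Replicate 4 is among the arrays with melan-a in Cy3, and without it 22 of the 33 candidates (66.7%) had the less negative ratio with Cy5 and the median difference was 0.13, beside 69.4% and 0.23 for all probes called lower.

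**Figure D4:**
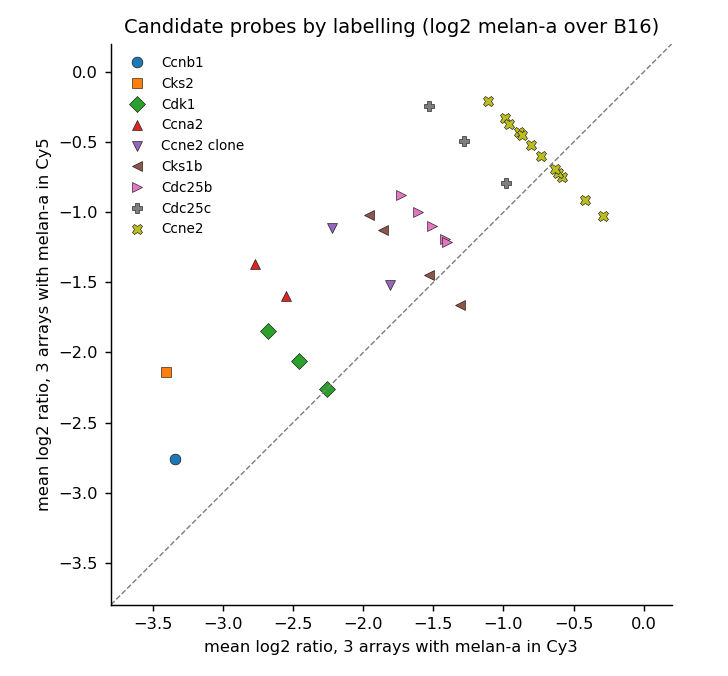
Mean log2 ratio of melan-a over B16 of each candidate probe on the 3 arrays with melan-a in Cy3 (horizontal axis) and on the 3 with melan-a in Cy5 (vertical axis), with the dashed line where both are equal. Most points, 27 of 33, lie above the line, with Ccna2 candidate A_51_P481920 farthest above it at a difference of 1.40.

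The arrays differed in the size of the difference for the members and for all probes called lower. The median over the 8 genes was -1.08 on replicate 1 and -2.58 on replicate 4, and between -1.61 and -1.46 on the other 4. The median of all 2504 probes called lower followed the same extremes, with -0.62 on replicate 1 and -1.38 on replicate 4, and the SD of all probes was largest on replicate 4 (0.803). For probes called higher the median was also small on replicate 1 (0.69) and large on replicate 4 (1.16). Its extremes were 0.68 on replicate 5 and 1.18 on replicate 3. The part of the array in the spread of the members was not tested further.

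Over the 6 arrays, which share hybridisation and labelling within each array, Ccnb1 and Cks2 ran together, with Pearson's r = 0.86 and Spearman's rho = 0.83. Without the 2 arrays farthest from the Ccnb1 median r was 0.36 over 4 arrays. Leaving out the extreme arrays narrows the range, so 4 arrays cannot decide how far the relation rests on the 2 left out. The 2 candidates of the cyclin B1-like entry had r = 0.96 and r = 0.93 with Ccnb1, and r = 0.92 with each other. The median r of the other 32 candidates with Ccnb1 was 0.59, against 0.43 for all probes called lower. Those 32 include the 12 candidates of the Ccne2 reference entry, many of which may measure other entries. Their median thus describes candidates and not genes. The 3 Cdk1 candidates had r = 0.60, -0.06 and -0.37 with Ccnb1. The latter 2 had r = 0.82 with each other and r = -0.53 and r = -0.85 with the first. The Cdk1 fold is shared by 3 listed entries, so some of these candidates may measure other entries. Their discordance therefore describes the candidates and not Cdk1. Among the 12 candidates of the Ccne2 reference entry, whose fold 8 listed entries share, r ranged from -0.98 to 0.98.

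By the rule for likeness, among 354 listed genes with a symbol and a single candidate, the ratios most like the members' median over the 6 arrays were those of Gjb2 (r = 0.971), Itga9 (r = 0.945), Add3 (r = 0.935), Nme1 (r = 0.921) and Rgs10 (r = 0.921), beside a median r of -0.18 over the 354. Those 354 include genes that differ either way, and over all probes called lower the median r was 0.58. Gjb2 encodes connexin 26, a gap junction protein, and Nme1 a nucleoside diphosphate kinase. Gjb2 was lower in melan-a (mean log2 ratio -2.72), as was Nme1 (-1.37). Itga9, Add3 and Rgs10 were higher in melan-a, at 1.33, 1.85 and 1.21, and their lowest log2 ratios were those of replicate 4, at -0.47, 0.17 and -0.54. The likeness is that of 6 arrays and carries no test.

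Of 97 other genes of the CDK axis looked up by symbol, 35 had an entry and so a named probe. The other 62 were not found by symbol in the list of differing genes, either because they are not listed or because their entry has no symbol, so no array probe could be assigned to them and they have no value here. By the same fit, 25 of the 35 had every candidate called lower in melan-a, beside 6.31% of all probes. Bora and Anapc5 are both among the 25 through the same candidates. Another 2 had every candidate called higher (Ccni and Cdkn2b), beside 5.23% of all probes, and 8 had candidates of which some were not called. The study listed all 35 genes for this contrast, so the counts are no independent evidence of a direction. The median log2 ratio of the 35 was -0.95, beside 0.01 for all probes tested and -0.89 for all probes called lower.

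Among 18 other cyclins, 5 were called lower and 1 higher, 2 were undecided and 10 were not found. Ccnh, the cyclin of the CDK-activating kinase, was 2.48-fold lower in melan-a over 3 candidates. Ccne1, the partner of Cdk2 at S phase entry, was 2.01-fold lower, and Ccnf 1.90-fold. Ccnb2, the other main mitotic B-type cyclin, was 1.79-fold lower, with 11 of its 12 candidates called. Of 15 other cyclin-dependent kinases only Cdk4, the D-type cyclin kinase of G1, had a named probe, and it was 2.02-fold lower over 7 candidates.

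Of 9 kinases and other proteins that help to switch Cdk1 on, 5 had every candidate called lower, 1 was undecided and 3 were not found. Aurka, the Aurora A kinase that with Bora activates Plk1, was 3.71-fold lower over 2 candidates, and Mastl, the Greatwall kinase that restrains the phosphatase opposing Cdk1, 3.36-fold lower over 5. Cdc25a, the third Cdc25 phosphatase, was 2.39-fold lower over 3 candidates. Bora was 2.18-fold lower, but it shares its listed fold, and so all 10 candidates, with Anapc5, a subunit of the anaphase-promoting complex.

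The inhibitors ran both ways. Of 12 inhibitors and inhibitory kinases, 3 were called lower and 1 higher, 1 was undecided and 7 were not found. Cdkn2b, the inhibitor p15 of Cdk4 and Cdk6, was 2.10-fold higher in melan-a at a single candidate, with log2 ratios of 0.67, 2.08, 1.08, 1.82, 0.61 and 0.16 on replicates 1 to 6, all above 0. Pkmyt1, which phosphorylates Cdk1 to keep it inactive, was 2.82-fold lower over 6 candidates. Cdkn1a, the inhibitor p21, was 1.76-fold lower and Cdk2ap1 1.93-fold lower, each with every candidate called.

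Of 20 genes of cyclin degradation, 4 were called lower, 1 was undecided and 15 were not found. Ube2c, the ubiquitin-conjugating enzyme that works with the anaphase-promoting complex, was 2.28-fold lower, Skp2 2.15-fold and Ube2s 1.68-fold. Of 23 E2F, DREAM and mitotic transcription genes, 7 were called lower, 3 were undecided and 13 were not found. Rbl1, the pocket protein p107, was 2.88-fold lower over 2 candidates and E2f2 2.66-fold over 5. E2f7, an atypical E2F that represses transcription, was 2.60-fold lower at a single candidate, with all 6 arrays below 0 and values from -2.10 to -0.47. Mybl2, the B-Myb subunit that joins MuvB at mitotic promoters, was 2.61-fold lower over 4 candidates.

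**Figure D5:**
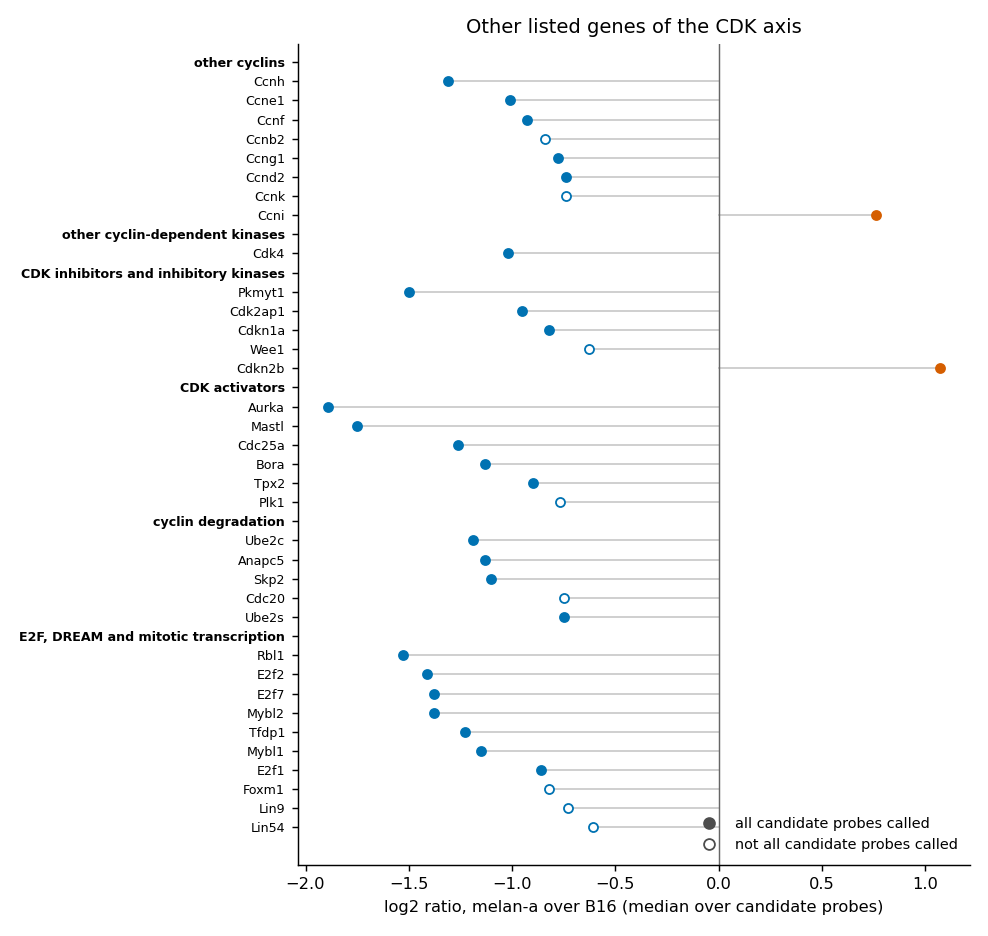
Log2 ratio of melan-a over B16 (horizontal axis, median over candidate probes) of the 35 other listed genes of the CDK axis, grouped by list; filled points had every candidate called by limma and open points did not. Only Ccni and Cdkn2b lie above 0 among these listed genes.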

How the data were processed

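RNA of melan-a and B16 cells was compared on 6 two-colour arrays. The headers of the deposited files name ImaGene 6.0.1 as the software that read the images, and they hold log2 signals for both dyes after a global lowess normalization (smoothing 0.2) without background correction; depth has no meaning for arrays, and the number of arrays limits the precision. A log2 ratio of melan-a to B16 was taken from the mean signals by the dyes in the labels, which match the image names in the headers; the Cy5 image comes first on replicate 3. The deposited series table holds the same log2 ratios, but its columns for replicates 4 and 5 hold each other's array, so the array files were used. Spots with a summed signal over 400 were kept on at least 3 arrays. The study states that limit for background-subtracted intensity, so fewer dim spots were removed here. This left 39687 probes for limma 3.58.1 (R 4.3.3), adjusted by Benjamini-Hochberg; the labelling was fitted as a second term for the dye effect. SAM used all 64 sign permutations at a median false discovery rate of 9.96%. Tables were joined in Python 3.11.15 with pandas 2.3.3 and numpy 2.4.6, correlations used scipy 1.17.1 and plots matplotlib 3.10.9, and the tests were checked on simulated data.

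Probes were named by matching the study's listed fold to each probe's mean ratio within 0.00051. Symbols came from RefSeq by accession for 2283 of 3549 entries and by listed symbol or synonym for 49 and 78; 1139 entries stayed unnamed. A gene that is not listed, or listed only without a symbol, counts as not found, whatever probes the array holds for it. Promoters are RefSeq, GRCm38.p6. Genes named are all 8 members, up to 4 of each CDK axis list with the largest listed ratio, the marker genes found, and the 5 genes most like the members' median. Members, lists and rules were chosen with earlier results of these data known.

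Alternatives were the median signals, no filter, a limit of 1000, subtraction of the empty-spot median with a floor of 50, centring, a further loess, the series table, a labelling term, SAM and leaving out each replicate. Each array pairs the lines, so the fits of the ratio are paired by design; the dye effect and the correlations compare ratios between arrays.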

Additional observations from a re-analysis of the deposited data

Results flagged for a closer look

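In 5 of 45 probes examined, 1 array lay apart from the other 5 by a gap larger than Dixon's critical share of the whole range, and it was replicate 4 each time. Chance gives about 1 in 20 for a single group, but these probes are not independent, so that rate cannot judge the count. Several flagged probes belong to the Ccne2 reference entry. Add3 was picked for its likeness to the members' median, which was itself lowest on replicate 4. For Cks1b candidate A_52_P609049 replicate 4 gave a log2 ratio of -2.86 against -1.50 to -0.83 on the others (gap over range 0.672). Of the Ccne2 reference entry, candidates A_52_P513624 and A_52_P193181 gave -1.93 and -1.61 on replicate 4, below the others, with gaps over range of 0.759 and 0.633. Candidate A_51_P422996 of the same entry lay the other way, at 0.77 on replicate 4 against -1.29 to -0.72 on the others (0.722). Add3 was nearest to 0 on replicate 4, at 0.17 against 1.78 to 2.50 (0.691). Neither Ccnb1, Cks2, Cdk1, Ccna2 nor the Cdc25 genes had an array that far apart.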

How the results depend on the processing

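The log2 ratios of the 9 member entries, as medians over candidates, kept their sign and moved by less than 1 SD under all 13 alternatives, which include leaving out each replicate. Several alternatives could not have moved them that far. Leaving out 1 of 6 arrays cannot shift a probe's mean by its own SD. Dropping the filter and using the series table left the entries' values the same to within rounding. For these the outcome was set in advance. Centring could also move them little, as the array medians over all probes ran from -0.0406 to 0.023. Subtraction of the empty-spot median takes near-equal amounts from both dyes, so it could hardly have changed a sign. Single candidates moved further. After subtraction of the empty-spot median, 6 of 33 lay more than their own SD from their deposited mean over all 6 arrays. Among them were A_51_P356931 of Cks1b at -3.04 (over the 3 arrays kept), A_52_P58558 of the Ccne2 clone at -2.84 and A_51_P409496 of Cdc25b at -2.01. The subtracted means cover only the arrays kept, so this count includes the loss of arrays. On the 5 arrays kept, A_52_P502771 of Cdc25c went from 2.09-fold to 3.49-fold lower. A_52_P661144 of the Ccne2 reference entry, also on 5 arrays, went from 1.67-fold to 2.02-fold lower. In log2, both of these shifts on the same arrays were smaller than the candidate's SD. Without 1 replicate Ccnb1 ranged from -3.34 to -2.79, Cks2 from -3.08 to -2.41 and Cdk1 from -2.39 to -2.02. Among the other named genes only E2f7 and Rbl1 moved by more than 1 SD, to -2.49 and -2.01 after subtraction of the empty-spot median. The count of members with every candidate called lower was 6 to 8 of 8: all 8 with a labelling term or with SAM, and 6 without the filter, with centring, with a further loess, or without replicate 1, 2, 3, 4 or 6 (range over single replicates left out 6 to 7), when Cdc25c was lost beside Ccne2. The candidates called fell to 24 without replicate 2. Over all probes, without 1 replicate, 2011 to 2815 were called lower and 1576 to 2235 higher. The dye effect was called for 16 probes, 16 without the filter and 22 with median signals, none of them a member's candidate. In melan-a 190 of 198 signals exceeded the 99th percentile of the empty spots. SAM called 26 of the other CDK axis genes lower against 25. The labelling without replicate 4 was examined after the data were seen. The limits are the naming of probes by fold, which leaves most members with several candidates, the absent background, and 6 arrays.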
